A study of Mus musculus with 6 samples.

Results

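Elane, Mpo, Prtn3, Ctsg and Ms4a3 are genes of the azurophil (primary) granule and of the immature myeloid cells that fill it. They were taken from the deposited expression table by gene name, which gave 5 of 36976 genes. Their RNA level was compared between 3 *Gdpd3*+/+ libraries (replicates 1, 2 and 3) and 3 *Gdpd3*-/- libraries (replicates 5, 6 and 7) of LT-CML stem cells. All the mice were tet-CML mice on a C57BL/6 background that carried both transgenes, SCL-tTA and TRE-BCR-ABL1, and in which tTA made under the SCL promoter switches on the human leukaemia oncogene BCR-ABL1 once doxycycline is withdrawn, here at 5 weeks of age. Cells were taken from hind limb bone marrow 5 weeks after induction. The *Gdpd3*-/- mice also carried a germline deletion of 5 bases made with Cas9 in *Gdpd3*, which encodes a lysophospholipase D. RNA came from 22 male and 12 female *Gdpd3*+/+ mice, and from 5 male and 5 female *Gdpd3*-/- mice. How these mice were shared among the 3 libraries of a group was not given, so the p-values below measure the spread between libraries. Values of single libraries are listed throughout as replicates 1, 2, 3 and then 5, 6, 7.

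Azurophil granules are the first granules made as a neutrophil matures, and they are filled at the promyelocyte stage. The serine proteases neutrophil elastase, proteinase 3 and cathepsin G (Elane, Prtn3 and Ctsg) are stored in them in active form beside myeloperoxidase (Mpo), which turns hydrogen peroxide and chloride into hypochlorous acid. Ms4a3 encodes a membrane protein of the tetraspan MS4A family that marks granulocyte-monocyte progenitors. The protease and peroxidase genes are read from promoters on which PU.1, C/EBP and Myb factors act, and their transcripts give way to those of the later granules as cells move past the promyelocyte.

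The 5 genes lie on 4 chromosomes. In the coordinates of the table, on mm9 as the submitters' processing notes name it, *Prtn3* spans chr10:79337221-79345919 and *Elane* chr10:79349057-79350961, both on the plus strand and 3138 bases apart. *Mpo* spans chr11:87607083-87617915 on the plus strand, *Ctsg* chr14:56718718-56721411 on the minus strand and *Ms4a3* chr19:11703987-11715341 on the minus strand. The 250 bases before each transcription start are shown because all 5 members were lower in the same libraries. They were taken from RefSeq (GRCm38.p6, a different build from that of the table), where all 5 members had an entry, and are written 5′ to 3′ on the strand of the gene. The starts of *Prtn3* and *Elane* lie farther apart in the table than in RefSeq. A sequence shown, that of *Prtn3* above all, need not lie just before the start of the gene model that was read. Capitals mark GGAAGT, a core of PU.1 and other ETS sites, and CAACNG, a core of Myb sites, on either strand.
Elane (chr10:79886062-79886311, plus strand): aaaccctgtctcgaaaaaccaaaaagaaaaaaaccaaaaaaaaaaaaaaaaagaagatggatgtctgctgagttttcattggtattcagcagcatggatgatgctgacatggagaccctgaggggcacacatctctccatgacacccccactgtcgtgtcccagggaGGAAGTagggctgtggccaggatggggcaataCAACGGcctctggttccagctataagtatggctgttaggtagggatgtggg
Prtn3 (chr10:79879417-79879666, plus strand): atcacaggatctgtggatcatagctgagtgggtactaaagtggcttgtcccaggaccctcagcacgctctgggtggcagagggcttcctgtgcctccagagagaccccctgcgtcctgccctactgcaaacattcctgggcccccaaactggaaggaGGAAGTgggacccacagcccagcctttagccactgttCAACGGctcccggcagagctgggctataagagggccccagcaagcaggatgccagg
Ctsg (chr14:56102575-56102824, minus strand): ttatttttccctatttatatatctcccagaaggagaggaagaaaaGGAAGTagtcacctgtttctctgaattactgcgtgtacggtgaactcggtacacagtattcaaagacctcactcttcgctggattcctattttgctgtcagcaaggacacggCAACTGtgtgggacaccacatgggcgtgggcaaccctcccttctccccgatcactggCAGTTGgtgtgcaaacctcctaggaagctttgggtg
Mpo (chr11:87793534-87793783, plus strand): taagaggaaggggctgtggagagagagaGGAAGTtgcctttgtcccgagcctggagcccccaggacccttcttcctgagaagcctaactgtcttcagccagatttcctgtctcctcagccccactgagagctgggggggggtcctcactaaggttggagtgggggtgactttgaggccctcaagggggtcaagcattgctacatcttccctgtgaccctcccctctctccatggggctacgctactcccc
Ms4a3 (chr19:11640852-11641101, minus strand): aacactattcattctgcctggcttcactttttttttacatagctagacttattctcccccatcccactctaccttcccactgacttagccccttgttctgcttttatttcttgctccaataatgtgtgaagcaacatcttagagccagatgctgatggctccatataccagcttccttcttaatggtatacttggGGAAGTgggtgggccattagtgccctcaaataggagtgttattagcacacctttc
GGAAGT was found in 5 of 5 members, and in 19.8% of 32544 RefSeq promoters of this length. CAACNG was found in 3 of 5, *Elane*, *Prtn3* and *Ctsg*, against 29.2% of the promoters, and the matches of the motifs did not overlap. TTNNGCAA, a C/EBP form, was found in 0 of 5 and in 9.58% of the promoters. *Elane* and *Prtn3* held the same pair in the same order, with GGAAGT from -83 to -78 and from -93 to -88 and CAACGG from -51 to -46 and from -56 to -51, counted from the transcription start. The motifs were chosen after the sequences were seen, and a match is a run of letters, not a measured site.

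Transcripts of the 5 genes were abundant in the *Gdpd3*+/+ stem cell fraction and lower in every *Gdpd3*-/- library. In FPKM, which is scaled by gene length and by library size, they summed to 6089, 7023 and 6651 in *Gdpd3*+/+, against 1194, 2408 and 2609 in *Gdpd3*-/-. They took 1.10 to 1.27% of all bases on genes in *Gdpd3*+/+ and 0.205, 0.428 and 0.474% in *Gdpd3*-/-. All 5 had a negative log2 fold change (median -1.77, against 0.24 over the 24689 genes tested). By limma on log2(FPKM + 0.1), adjusted over all genes tested, *Elane*, *Prtn3* and *Ms4a3* fell, 3 of 5, where 0.616% of all genes were called lower and 1.71% in either direction. In 5 of 5 the highest *Gdpd3*-/- value was under the lowest *Gdpd3*+/+ value, as for 8.27% of all genes. Without any single *Gdpd3*+/+ library 0 of 5 were called, although 3238 to 3525 genes then still had an unadjusted p under 0.05. Without *Gdpd3*-/- replicate 5 or 7 the count was 5 and without *Gdpd3*-/- replicate 6 it was 2. In bulk RNA, fewer cells that hold a transcript and less of it per cell cannot be told apart.

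The depth behind these values was inferred from the table, as covered bases on genes, at 4.98 to 6.28 Gb in *Gdpd3*+/+ and 2.13 to 3.64 Gb in *Gdpd3*-/-. The lowest coverage of any member, *Ms4a3* in *Gdpd3*-/- replicate 5, was about 1473 reads of 150 bases. *Gdpd3* itself was read at 2.95 to 7.30 FPKM in *Gdpd3*+/+ and 0.0129 to 0.681 FPKM in *Gdpd3*-/-, and the groups did not overlap, but the difference did not pass the test (log2 fold change -4.0, adjusted p = 0.0588 by limma). Calls over all genes were 152 lower and 270 higher in *Gdpd3*-/-, and with TMM scaling, under which all genes tested had a median of 0.01 on the log2 scale, they were 271 lower and 114 higher. With quantile normalization they were 206 lower and 119 higher. The median of the members was -2.02 with TMM and -1.74 with quantile normalization. Skeletal muscle transcripts were high in *Gdpd3*-/- replicates 5 and 6. Of the 12 muscle markers 12 did not overlap, higher in *Gdpd3*-/- (23.5% of all genes). By limma 0 were called, and 12 were higher at an unadjusted p under 0.05, as were 4070 of the 24689 genes tested. The 12 markers summed to 899 to 1327 FPKM in *Gdpd3*+/+ against 11519, 16545 and 2210 in *Gdpd3*-/-. *Gdpd3*-/- replicate 7 had the least muscle transcript of the *Gdpd3*-/- libraries, at 2210 FPKM, still above the highest *Gdpd3*+/+ sum of 1327 FPKM. The members summed to 2609 FPKM in replicate 7 and to 6089 FPKM or more in *Gdpd3*+/+. The part of muscle transcript in the level of the members was not tested.

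**Figure D1:**
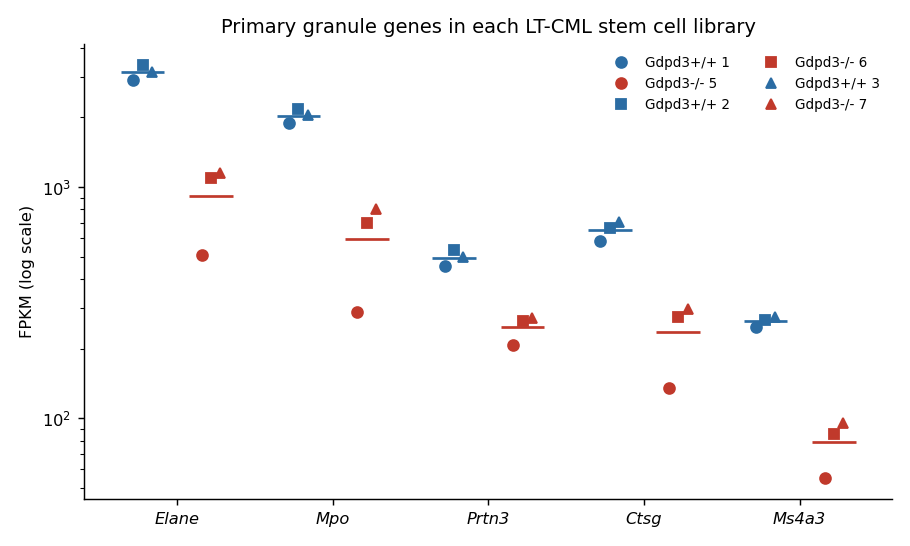
FPKM of each member in each library on a log axis, with 1 point per library and the genotypes side by side. All 3 Gdpd3-/- points sit below all 3 Gdpd3+/+ points for every member, and Elane is the highest of the 5 genes in every library.

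Among the serine proteases, *Elane* was the most abundant. It was read at 2916, 3383 and 3137 FPKM in *Gdpd3*+/+, against 511, 1089 and 1146 FPKM in *Gdpd3*-/-. *Gdpd3*-/- replicate 5 was the lowest by far, and even the highest *Gdpd3*-/- library was below the lowest *Gdpd3*+/+ one. The means were 3145 ± 233 and 915 ± 352 FPKM (SD, n = 3 each), so *Gdpd3*-/- held 29.1% of the *Gdpd3*+/+ level (log2 fold change -1.87, SE 0.31, adjusted p = 0.0477 by limma). In rank by FPKM it went from 27th, 20th and 22nd of all genes in *Gdpd3*+/+ to 137th, 64th and 46th in *Gdpd3*-/-.

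*Prtn3*, its neighbour on chromosome 10, had the smallest fold change of the 5. It was at 454, 535 and 497 FPKM in *Gdpd3*+/+ and 207, 263 and 271 FPKM in *Gdpd3*-/-. Relative to their mean the *Gdpd3*-/- libraries were closer together than those of *Elane*, and the groups did not overlap. *Gdpd3*-/- kept 49.9% of the *Gdpd3*+/+ level (495 ± 40.5 against 247 ± 35.3 FPKM, SD, n = 3 each), with a log2 fold change of -1.01 (SE 0.14, adjusted p = 0.0315 by limma). Its exons share 159 bases with BC005764 on the other strand, which read 23.1 to 42.0 FPKM, and the library kit did not mark strand, so reads there cannot be told apart.

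*Ctsg*, the cathepsin G gene, was at 582, 665 and 702 FPKM in *Gdpd3*+/+ and 135, 274 and 296 FPKM in *Gdpd3*-/-. Here too replicate 5 was the lowest and the groups did not overlap. The *Gdpd3*-/- mean was 36.2% of the *Gdpd3*+/+ mean, at 235 ± 87.7 against 650.0 ± 61.5 FPKM (SD, n = 3 each), with a log2 fold change of -1.54 (SE 0.30) that did not pass the test (adjusted p = 0.0590 by limma).

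*Mpo*, the peroxidase gene, was at 1889, 2175 and 2040.1 FPKM in *Gdpd3*+/+ and 287, 695 and 800.5 FPKM in *Gdpd3*-/-. The spread within *Gdpd3*-/- was the widest of the 5 in relation to its mean, again through replicate 5. At 594 ± 271 against 2035 ± 143 FPKM (SD, n = 3 each) the *Gdpd3*-/- mean was 29.2% of the *Gdpd3*+/+ mean. The log2 fold change of -1.90 (SE 0.37) was the largest of the members and did not pass the test (adjusted p = 0.0611 by limma). *Mpo* exons share 512 bases with Gm11505 on the other strand, which is 737 bases long and read 383 to 2979.6 FPKM. Reads on the shared bases cannot be told apart here either, so that level may be largely *Mpo* reads.

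*Ms4a3* had the smallest adjusted p of the members. It was read at 248, 265 and 275 FPKM in *Gdpd3*+/+, against 55.0, 85.7 and 95.6 FPKM in *Gdpd3*-/-. The 3 *Gdpd3*+/+ libraries were within a narrow range and all *Gdpd3*-/- libraries far below it. The means were 263 ± 13.5 and 78.7 ± 21.2 FPKM (SD, n = 3 each), a *Gdpd3*-/- level of 29.98% (log2 fold change -1.77, SE 0.21, adjusted p = 0.0233 by limma). For each of the 5 genes the two-sided exact permutation test of the mean FPKM gave p = 0.1, the smallest that 3 libraries against 3 allow. *Elane*, *Ctsg* and *Ms4a3* share no exon with another gene model of the table.

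**Figure D2:**
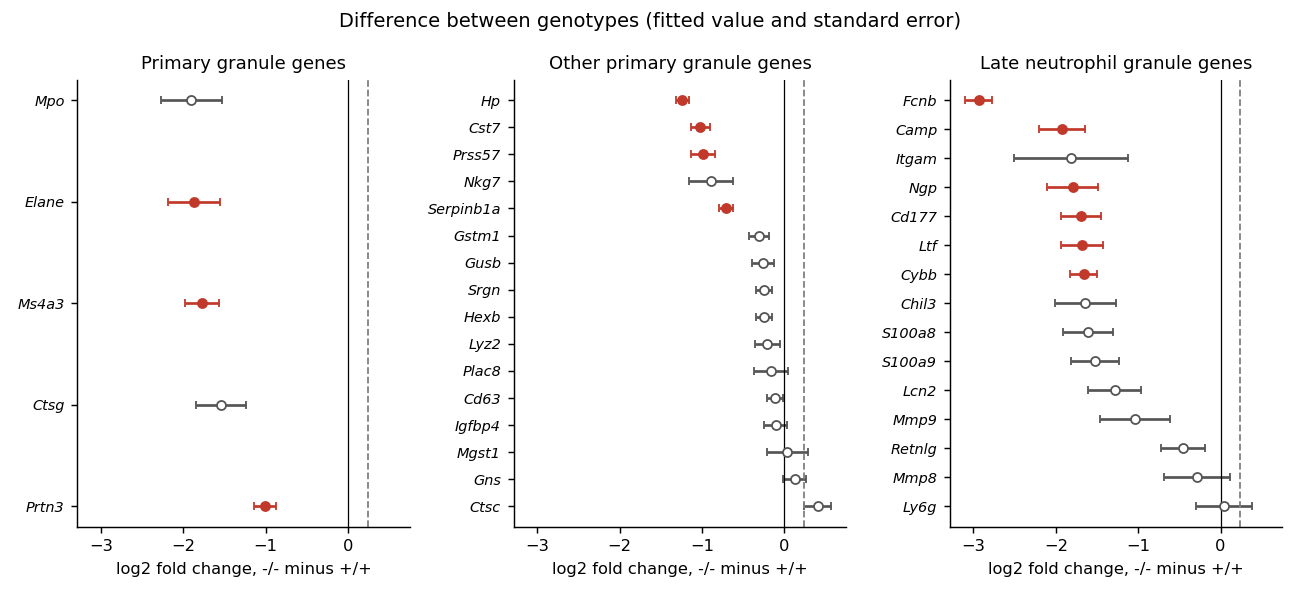
Log2 fold change of Gdpd3-/- against Gdpd3+/+ with its standard error, on the log2(FPKM + 0.1) scale. Panels show the members, other primary granule and precursor genes, and late neutrophil granule genes. Filled red points passed the test, and the dashed line is the median of all genes tested, 0.24. Members run from -1.01 (Prtn3) to -1.90 (Mpo), and all are below 0.

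In *Gdpd3*+/+ the order of levels was *Elane*, *Mpo*, *Ctsg*, *Prtn3* and *Ms4a3* in all 3 libraries, with no overlap between neighbours. In *Gdpd3*-/- the order was the same in replicates 6 and 7, while *Prtn3* was above *Ctsg* in replicate 5, and the ranges overlapped for *Prtn3* and *Ctsg*, for *Mpo* and *Ctsg* and for *Elane* and *Mpo*. Ratios within a library, which scaling by a library factor does not touch, set the members against each other. The ratio of *Elane* to *Prtn3* was 6.42, 6.32 and 6.31 in *Gdpd3*+/+ and 2.47, 4.13 and 4.23 in *Gdpd3*-/-. That of *Mpo* to *Prtn3* was 4.16, 4.06 and 4.11 in *Gdpd3*+/+ and 1.39, 2.64 and 2.95 in *Gdpd3*-/-. That of *Prtn3* to *Ms4a3* was 1.81 to 2.02 in *Gdpd3*+/+ and 2.84 to 3.76 in *Gdpd3*-/-. By contrast, *Elane* to *Mpo* was 1.54 to 1.56 in *Gdpd3*+/+ and 1.78, 1.57 and 1.43 in *Gdpd3*-/-, so these ranges overlapped. Of the 10 pairs 6 did not overlap, and none passed the exact permutation test of the log2 ratio, for which 3 against 3 libraries cannot go below p = 0.1 (adjusted p of 0.167 over the 10 pairs). The pairs share genes, and each of the 6 held *Prtn3* or *Ctsg*, so they are not 6 separate results. The share that did not overlap among other gene pairs was not taken.

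**Figure D3:**
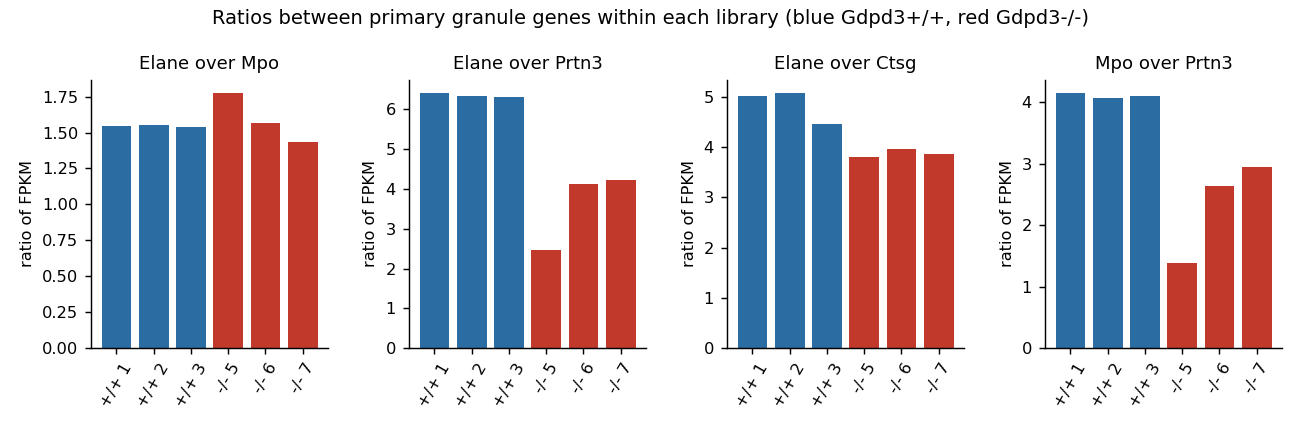
Ratio of FPKM between 4 pairs of members, with 1 bar per library, blue for Gdpd3+/+ and red for Gdpd3-/-. The Elane to Prtn3 ratio lies at 6.31 to 6.42 in Gdpd3+/+ and 2.47 to 4.23 in Gdpd3-/-, while the Elane to Mpo ratio overlaps between the genotypes.

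Other genes of the primary granule, its packing and its protease control were read next, in a list that also holds genes of precursor cells. Of 17 listed, 16 were tested (*Bpi* was under the filter), and 4 fell and 0 rose, with 0.616% of all genes called lower. The median log2 fold change was -0.25, and 10 did not overlap and were lower against 8.27% of all genes. The count called lower was 0 without *Gdpd3*+/+ replicate 1 or 2, 1 without replicate 3, and 2 without *Gdpd3*-/- replicate 5. *Prss57*, neutrophil serine protease 4, fell (37.1, 44.5 and 42.9 FPKM against 17.6, 23.1 and 22.3, log2 fold change -0.99, adjusted p = 0.0336 by limma). *Cst7*, cystatin F, an inhibitor of cathepsin C, fell by 1.02 on the log2 scale (adjusted p = 0.0200), and *Serpinb1a*, an inhibitor of neutrophil serine proteases, fell by 0.70 (adjusted p = 0.0262). *Hp*, haptoglobin, which is also stored in later granules, fell from 188 to 195 FPKM to 78.6 to 82.3 FPKM (log2 fold change -1.24, adjusted p = 0.00562). *Ctsc*, the dipeptidyl peptidase that trims the serine proteases into active form, was at 23.1 to 26.6 FPKM in *Gdpd3*+/+ and 27.5 to 40.6 in *Gdpd3*-/- and did not pass the test. *Srgn*, the proteoglycan core that packs proteases, had a log2 fold change of -0.25, and *Lyz2*, lysozyme, one of -0.20, and neither passed.

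Among 12 regulators of the promyelocyte program, 1 fell and 0 rose (median log2 fold change -0.01), with 0.616% of all genes called lower. Without overlap 3 were lower (8.27% of all genes), namely *Cebpe*, *Cebpd* (log2 fold change -0.53) and *Ets1* (-1.08). Another 3 were higher without overlap (23.5% of all genes), namely *Cebpb* (0.37), *Irf8* (0.90) and *Klf4* (1.09). Of these only *Cebpe* passed the test. *Cebpe*, the C/EBP factor that drives later granule genes, was at 13.02, 15.5 and 13.5 FPKM in *Gdpd3*+/+ and 4.54, 4.01 and 5.37 in *Gdpd3*-/- (log2 fold change -1.58, SE 0.16, adjusted p = 0.0197 by limma), and was not called without any one of the *Gdpd3*+/+ libraries. *Cebpa* (log2 fold change -0.48), *Gfi1* (-0.44), *Myb* (-0.15) and *Spi1* (0.13, the gene of PU.1, which changed sign with TMM and quantile normalization) did not pass. Of 12 progenitor receptors 2 rose and 0 fell (median 0.43, with 1.09% of all genes called higher). In 7 the groups did not overlap and *Gdpd3*-/- was higher, as for 23.5% of all genes. In 3 it was lower without overlap, as for 8.27% of all genes. These were *Fcgr3* (67.4 to 83.0 FPKM against 39.0 to 56.6), *Csf2ra* (28.4 to 31.7 against 15.4 to 25.8) and *Fcgr2b* (15.5 to 18.5 against 2.27 to 12.3). None of these 3 passed the test. *Flt3* rose from 9.80 to 11.0 FPKM to 36.8 to 46.5 FPKM (log2 fold change 1.93, adjusted p = 0.00562) and *Cd34*, a stem and progenitor cell surface glycoprotein, from 105 to 111 FPKM to 187 to 221 FPKM (0.88, adjusted p = 0.0204). Without *Gdpd3*+/+ replicate 1 or 2 neither was called and without replicate 3 only *Flt3* was, while 4 receptors were called without *Gdpd3*-/- replicate 7. The sort had kept cells negative for CD135, the Flt3 protein, and for CD48. The *Cd48* transcript was at 39.8 to 44.8 FPKM in *Gdpd3*+/+ and 51.6 to 92.2 FPKM in *Gdpd3*-/-. The groups did not overlap, but the difference did not pass (log2 fold change 0.60, adjusted p = 0.188 by limma).

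Of 15 late neutrophil granule genes, made after the primary ones, 6 fell and 0 rose (median log2 fold change -1.64, with 0.616% of all genes called lower). In 12 of 15 the groups did not overlap and *Gdpd3*-/- was lower, as for 8.27% of all genes, while *Mmp8*, *Retnlg* and *Ly6g* (log2 fold change 0.04) overlapped. The 6 were *Ltf*, *Camp*, *Ngp*, *Fcnb*, *Cd177* and *Cybb*. *Fcnb*, ficolin B, fell most of these, from 231 to 248 FPKM to 24.1 to 36.4 FPKM (log2 fold change -2.94, adjusted p = 0.00562 by limma). The count was 0 without *Gdpd3*+/+ replicate 1 or 2, 1 without replicate 3, and 10 without *Gdpd3*-/- replicate 5. The list summed to 25151 to 29410 FPKM in *Gdpd3*+/+ and to 14201, 6740 and 7726 FPKM in *Gdpd3*-/-. Replicate 5 therefore had the lowest sum of the members and the highest late sum of the *Gdpd3*-/- libraries. The other primary granule and precursor genes differed less in sum, at 3278, 3183 and 3260 FPKM in *Gdpd3*-/-. The largest part of that sum was *Lyz2*, at 1190, 902 and 976 FPKM. Of the 4 that fell, *Prss57*, *Cst7* and *Serpinb1a* were lowest in replicate 5, while *Hp* was not. The ratio of *Elane* to *Ngp*, a late granule gene, was 0.786, 1.12 and 0.963 in *Gdpd3*+/+ and 0.325, 1.62 and 1.39 in *Gdpd3*-/-, and so overlapped between the groups. Lineage antibodies against Mac1 and Gr-1 were used in the sort, yet mature neutrophil genes were read in every library. Their part in the level of the members was not tested.

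**Figure D4:**
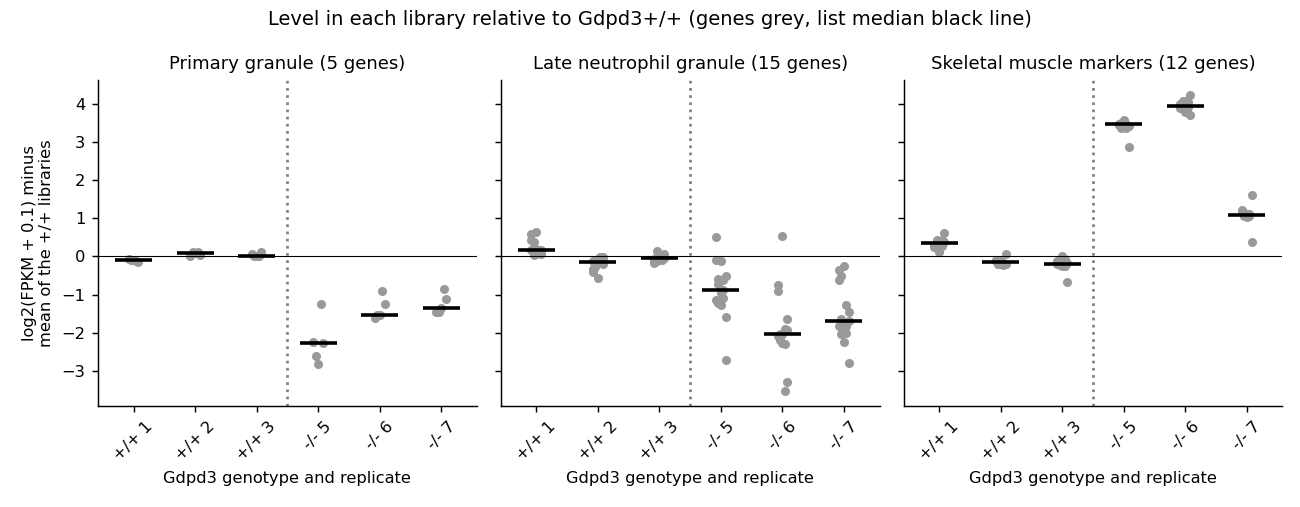
log2(FPKM + 0.1) minus the Gdpd3+/+ mean in each library for 5 primary granule genes, 15 late neutrophil granule genes and 12 skeletal muscle markers, with the list median as a black line. By list median, Gdpd3-/- replicate 5 is the lowest for the 5 primary genes and the highest of the Gdpd3-/- libraries for late genes. Muscle is lowest among those libraries in replicate 7.

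Markers of the sorted cells and of other cells were read beside these. Over all genes 0.616% were called lower and 1.09% higher by limma. At an unadjusted p under 0.05, 1423 of 24689 genes were lower and 4070 higher. Of 14 LT stem cell markers 0 fell and 1 (*Hoxa9*) rose, and they summed to 819 to 888 FPKM in *Gdpd3*+/+ and 862 to 1124 in *Gdpd3*-/-. Of 10 monocyte and macrophage markers 1 fell, *Ly6c2* (1729 to 1796 FPKM against 437 to 667), and the list summed to 1785 to 1864 FPKM against 515 to 731. Of 10 B and plasma cell markers 2 fell, *Xbp1* and *Irf4*, with sums of 2344 to 2981 FPKM against 1092 to 1975. Most of that sum was *Jchain*, at 1958 to 2551 against 882 to 1692 FPKM. Of the 10, 5 did not overlap and were lower in *Gdpd3*-/-, while 2 did not overlap and were higher. These 2 were *Cd79b* (39.5 to 39.9 against 50.2 to 58.7 FPKM) and the entry read as *Ebf1* (0.158 to 0.504 against 1.45 to 2.48 FPKM), and neither was called. That *Ebf1* entry is 453 bases long and typed as a pseudogene, so it need not stand for the B cell factor. Erythroid and megakaryocyte markers had 0 of 10 called by limma, 1 being lower at an unadjusted p under 0.05, and summed to 1772 to 2512 FPKM against 1301 to 2559. T and NK cell markers were near 0 throughout, at 4.16 to 5.64 FPKM against 2.35 to 4.90 in sum, with 0 of 6 tested called by limma, 0 at an unadjusted p under 0.05, and *Cd3e*, *Cd3g* and *Trac* listed at 0 in *Gdpd3*-/- replicate 6. Without any one of the *Gdpd3*+/+ libraries *Hoxa9*, *Ly6c2*, *Xbp1* and *Irf4* were not called, and nor were *Hoxa9* and *Xbp1* without *Gdpd3*-/- replicate 5. With no intensity trend none of the 4 was called, and *Hoxa9* was not with TMM (0.39, adjusted p = 0.122 by limma) or quantile normalization (0.54, adjusted p = 0.0809). The part of these cells in the result was not tested.

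Genomic neighbours and family members of the 5 genes were read as a further list. Of 15 tested of 16 (*Lpo* was under the filter), 0 fell and 2 rose (median log2 fold change 0.52), with 1.09% of all genes called higher. *Cfd*, complement factor D, starts 2637 bases past the end of *Elane* and was at 0.00863 to 1.33 FPKM in *Gdpd3*+/+ and 0 to 12.3 FPKM in *Gdpd3*-/-, overlapping. *Gzmb*, granzyme B, in the same protease cluster on chromosome 14 as *Ctsg*, rose from 2.57 to 7.41 FPKM to 32.0 to 45.9 FPKM (log2 fold change 3.11, adjusted p = 0.0242 by limma), and *Cma1*, mast cell chymase of that cluster, was at 20.7 to 59.0 against 127 to 223 FPKM without passing (adjusted p = 0.0518). *Ms4a6c*, of the family of *Ms4a3*, rose by 0.85 (adjusted p = 0.0417). *Gzmb* was not called without *Gdpd3*+/+ replicate 1 or 2 or *Gdpd3*-/- replicate 5, and among the leave-outs *Ms4a6c* was called only without *Gdpd3*-/- replicate 7. With no intensity trend and with array weights neither was called, and *Ms4a6c* was not with TMM (0.61, adjusted p = 0.0780 by limma), quantile normalization (0.74, adjusted p = 0.06005) or no filter (0.85, adjusted p = 0.0532). *Epx*, eosinophil peroxidase, a paralogue of *Mpo*, was at 133 to 179 FPKM against 8.95 to 73.5 and did not pass (adjusted p = 0.197).

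The genes most like the members in level over the 6 libraries, among 15098 that averaged 1 FPKM or more, were *Wipi1*, *Alas1*, *Agps*, *Ighg2b* and *Chst13*, with Pearson r between 0.996 and 0.998 to the mean log2(FPKM + 0.1) of the members. These r values join 2 groups that do not overlap, and carry no test. *Alas1*, the first enzyme of haem synthesis, was at 63.9, 70.8 and 71.9 FPKM in *Gdpd3*+/+ and 19.9, 34.7 and 33.0 in *Gdpd3*-/- (log2 fold change -1.27, adjusted p = 0.0485 by limma). *Agps*, an enzyme of ether lipid synthesis, was at 22.7 to 25.0 FPKM against 7.10 to 12.9 (-1.27, adjusted p = 0.0492) and *Chst13*, a carbohydrate sulfotransferase, at 14.3 to 14.95 against 2.81 to 5.49 (-1.77, adjusted p = 0.0347). *Wipi1*, an autophagy protein gene, and *Ighg2b*, an immunoglobulin constant region with near copies, did not pass (adjusted p = 0.145 and 0.0560 by limma). *Alas1*, *Agps* and *Chst13* were not called without any one of the *Gdpd3*+/+ libraries, and *Agps* was not without *Gdpd3*-/- replicate 6.

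**Figure D5:**
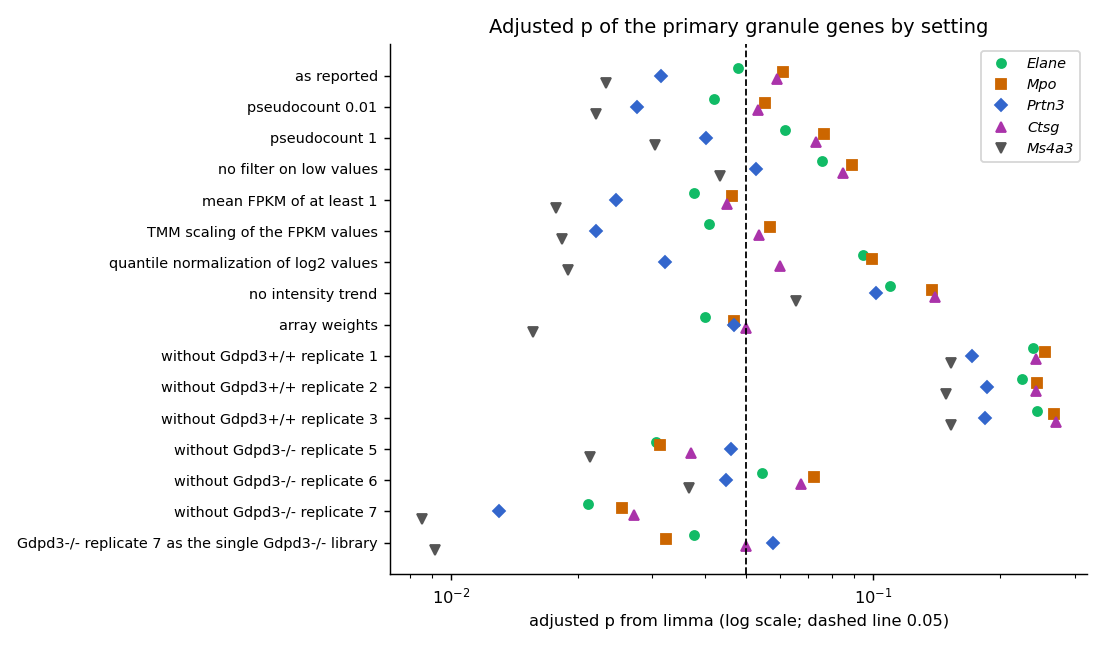
Adjusted p of each member under each processing setting, on a log axis, with the threshold of 0.05 drawn. Ms4a3 is under the threshold as reported (0.0233), and no member is when any single Gdpd3+/+ library or the intensity trend is left out. The bottom setting has 1 Gdpd3-/- library and takes its spread from Gdpd3+/+ alone.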

How the data were processed

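Bone marrow cells sorted as CD150+ CD48- CD135- Lineage- Sca-1+ cKit+ gave 6 SMART-Seq v4 libraries with paired reads of 150 bases. Per the labels, reads were trimmed (Trimmomatic, Trim Galore, cutadapt 1.16), mapped with STAR 2.6.1a and counted with featureCounts 1.6.1 on mm9, and the authors deposited FPKM values for 36976 genes. The authors also deposited a table of their own comparison, holding base means, log2 fold changes, standard errors, Wald statistics and p-values from DESeq2, which was not used. Depth was inferred as the scale at which FPKM times gene length is whole (within 0.05), taken as covered bases; reads were not recovered, so no count model was run.

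The 24689 genes averaging 0.05 FPKM or more were fitted on the log2(FPKM + 0.1) scale with limma 3.58.1 (R 4.3.3), with a trend on intensity, no term beside genotype, and Benjamini-Hochberg adjustment over them and calls at 0.05. Fold changes on that scale understate those of low genes. Means of single genes and ratios were tested by exact permutation in SciPy 1.17.1, two-sided, over 20 assignments. The settings also tried were a pseudocount of 0.01 or 1, all genes unfiltered, genes averaging 1 FPKM or more, quantile normalization, TMM (trimming 30% of M and 5% of A), no trend, array weights, leaving out each library, and, added after the data were seen, *Gdpd3*-/- replicate 7 as the single *Gdpd3*-/- library. Functions were tested on simulated data. Members and lists were chosen with earlier results of these data known. Named genes are the members, members of the lists, *Gdpd3*, and the 5 genes averaging 1 FPKM or more most correlated with the members.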

Additional observations from a re-analysis of the deposited data

How the results depend on the processing

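All 5 members had a negative log2 fold change under each of the alternatives named in the processing, with the count called lower (3) changing in some. With *Gdpd3*-/- replicate 7 as the single *Gdpd3*-/- library, that arm has no spread of its own and is assumed to vary like the 3 *Gdpd3*+/+ libraries, so its values are printed for completeness and its calls support nothing. The count was 1 without a filter, 0 with no intensity trend, and 5 with genes averaging 1 FPKM or more and with array weights. *Elane* was not called at a pseudocount of 1 (-1.87, adjusted p = 0.0618), without a filter (-1.87, 0.0755), with quantile normalization (-1.74, 0.0943) and with no trend (-1.87, 0.110). *Prtn3* was not called without a filter (-1.01, 0.0527) and with no trend (-1.01, 0.102), and *Ms4a3* was not with no trend (-1.77, 0.0655). *Mpo* was called with genes averaging 1 FPKM or more (-1.90, 0.0463) and with array weights (-1.87, 0.0468), as was *Ctsg* (-1.54, 0.0451 and -1.54, 0.0499). The single library gave -1.34 for *Mpo* (SE 0.13 against 0.37 with all libraries), -0.87 for *Prtn3* and -1.13 for *Ctsg*, with adjusted p of 0.0323, 0.0579 and 0.0499. The cause of these changes was not tested.

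Over all genes, 225 were called (101 lower, 124 higher) at a pseudocount of 1, 213 (88 and 125) without a filter, 673 (471 higher) with genes averaging 1 FPKM or more, 153 (74 and 79) with no trend and 240 (124 higher) with array weights, and the single library, with the spread of *Gdpd3*+/+ alone, gave 2294 (398 and 1896). TMM gave 271 lower and 114 higher, and quantile normalization 206 lower and 119 higher. Late neutrophil genes called lower numbered 2 without a filter and 1 with no trend. Other primary granule and precursor genes called lower numbered 1 with no trend. Progenitor receptors called higher numbered 1 with quantile normalization, 1 with no trend and 5 with the single library, which also called 1 receptor lower and 1 regulator higher. The log2 fold change of *Spi1* was -0.12 with TMM and -0.0064 with quantile normalization, and with the single library that of *Cebpa* was 0.058 and that of *Myb* 0.10.

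Leaving out each library gave 0 to 3413 genes called in all, 0 to 1049 lower and 0 to 2364 higher. It gave 0 to 5 members and 0 to 5 other primary granule and precursor genes called lower. Late genes called lower numbered 0 to 10 and regulators 0 to 1. Receptors called higher numbered 0 to 4, and those called lower 0 to 1. Log2 fold changes ran from -2.07 to -1.49 for *Elane*, -2.18 to -1.44 for *Mpo*, -1.08 to -0.89 for *Prtn3*, -1.75 to -1.18 for *Ctsg* and -1.93 to -1.54 for *Ms4a3*, and *Ctsg* minus *Prtn3* from -30.5 to 18.0 FPKM in *Gdpd3*-/- and 129 to 168 FPKM in *Gdpd3*+/+. No paired analysis was possible because the groups share no replicate number.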
